A study of Mus musculus with 15 samples.

Results

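The 10 genes described here encode enzymes that remove superoxide and peroxides, or that make the thiols these enzymes consume: Gpx1, Gpx3, Gpx4, Cat, Sod1, Sod2, Prdx1, Prdx5, Txnrd1 and Gclc. They were found by gene symbol among the 47069 genes of the deposited table, and each symbol matched 1 row. RNA-Seq was run on 12 single proximal tubules dissected by hand from mouse kidney and labelled PTS2, and on 3 samples of whole kidney, which holds every renal cell type and the proximal tubule among them. All 15 libraries came from male C57BL/6 mice aged 2 months, and the labels name no treatment and no altered gene. The PTS2 libraries form 3 sets, m1, m2 and m3, of 4 replicates numbered 1 to 4. The labels do not say what m stands for or which libraries share an animal, so p-values measure only the spread between these libraries. Levels are TPM, transcript abundances corrected for gene length and scaled to a common total, so they can be compared between genes within a library. Between libraries each level is a share of that total, so differences depend on the scaling, as given below. TPM keep no record of how deeply a library was sequenced, so no counting error is given.

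Superoxide dismutases turn superoxide, a by-product of respiration and of oxidase activity, into hydrogen peroxide. Catalase breaks hydrogen peroxide down inside peroxisomes, glutathione peroxidases reduce peroxides with glutathione, and peroxiredoxins reduce them with electrons from thioredoxin. The proximal tubule is rich in mitochondria and peroxisomes, and in the mouse it is the main source of the glutathione peroxidase found in plasma, which Gpx3 encodes.

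The proximal tubule has an early S1, a middle S2 and a late S3 segment, and the labels were checked against markers of each. Summed markers of the proximal tubule as a whole lay between 18357 and 26163 TPM in PTS2 and between 18051 and 19083 TPM in whole kidney. S1 markers were far lower in the dissected tubules: their sum reached at most 79.9 TPM in PTS2 against at least 818 TPM in whole kidney, and the glucose transporter Slc5a2 did not exceed 1.38 TPM. The S2 sum overlapped whole kidney, at 368 to 1149 TPM against 719 to 781 TPM. Of its markers, Slc22a8 was lower in every tubule, at 24.7 to 161 TPM against 261 to 284 TPM, and Slc22a6 overlapped. The S3 sum was above whole kidney in every library, at 1497 to 2683 TPM against 785 to 1032 TPM. Of its 3 markers, Slc7a13 was above in every library, at 1367 to 2141 TPM against 652 to 909 TPM. Slc22a13 overlapped whole kidney, at 87.05 to 487 TPM against 78.1 to 99.6 TPM, but passed as higher in PTS2 (log2 difference 1.70, limma adjusted p = 0.00148). Slc5a1 overlapped and did not pass (0.27, limma adjusted p = 0.0914). These lists therefore do not set the tubules labelled PTS2 apart from S3. All markers listed for the thick ascending limb, the distal convoluted tubule, endothelium, macrophages and podocytes were lower in PTS2, with no overlap of libraries. Replicate 3 of set m3 stood apart, with thick ascending limb markers at 1441 TPM, 56.1% of their whole kidney mean, against 4.75 to 55.8 TPM in the other PTS2 libraries. In bulk libraries such as these, fewer cells of a type and less RNA per cell cannot be told apart.

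Of the 10 enzymes, 4 are selenoproteins, whose messages carry a TGA codon read as selenocysteine where it would otherwise end translation. The coding sequence around that codon is shown because these 4 genes did not move together between PTS2 and whole kidney. Sequences are from the GENCODE M21 transcripts on build GRCm38, all on the plus strand, written 5′ to 3′ with the TGA codon in capitals:
Gpx1: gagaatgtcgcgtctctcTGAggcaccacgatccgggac
Gpx3: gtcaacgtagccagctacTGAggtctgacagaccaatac
Gpx4: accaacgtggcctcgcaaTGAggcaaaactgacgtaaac
Txnrd1: atcctccagtctggctgcTGAggttaa

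In Gpx1 the codon lies in exon 1 of 2, at chr9:108339451-108339453, and is codon 47 of 201. In Gpx3 it lies in exon 2 of 5, at chr11:54907256-54907258, and is codon 73 of 226. In Gpx4 it lies in exon 3 of 7, at chr10:80054737-80054739, and is codon 73 of 197 of the transcript used. In the 3 glutathione peroxidases it thus sits inside the coding sequence, where it encodes the active-site residue. In Txnrd1 it lies in exon 14 of 14, at chr10:82896037-82896039, and is codon 498 of 499, the last but one before the stop codon taa that closes the printed sequence.

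Set against whole kidney, 6 of the 10 enzyme genes were higher in PTS2, 1 was lower and 3 did not pass the test (limma, adjusted p under 0.05). Of the 12039 genes tested, 51.2% passed in either direction, 9.68% as higher in PTS2 and 41.5% as lower. The median log2 difference of the 10 genes was 0.34, beside -0.27 over all genes tested. The genes that passed as higher were Gpx4, Cat, Sod1, Prdx1, Prdx5 and Gclc, and the gene that passed as lower was Gpx3. Without m3 replicate 3 the counts were again 7 passing, 6 higher and 1 lower. For 4 genes (Gpx4, Cat, Prdx1 and Prdx5) every PTS2 library lay above every whole kidney library, for Gpx3 every one lay below, and for 5 the libraries overlapped. Over all genes tested, 37.8% had no overlap.

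**Figure D1:**
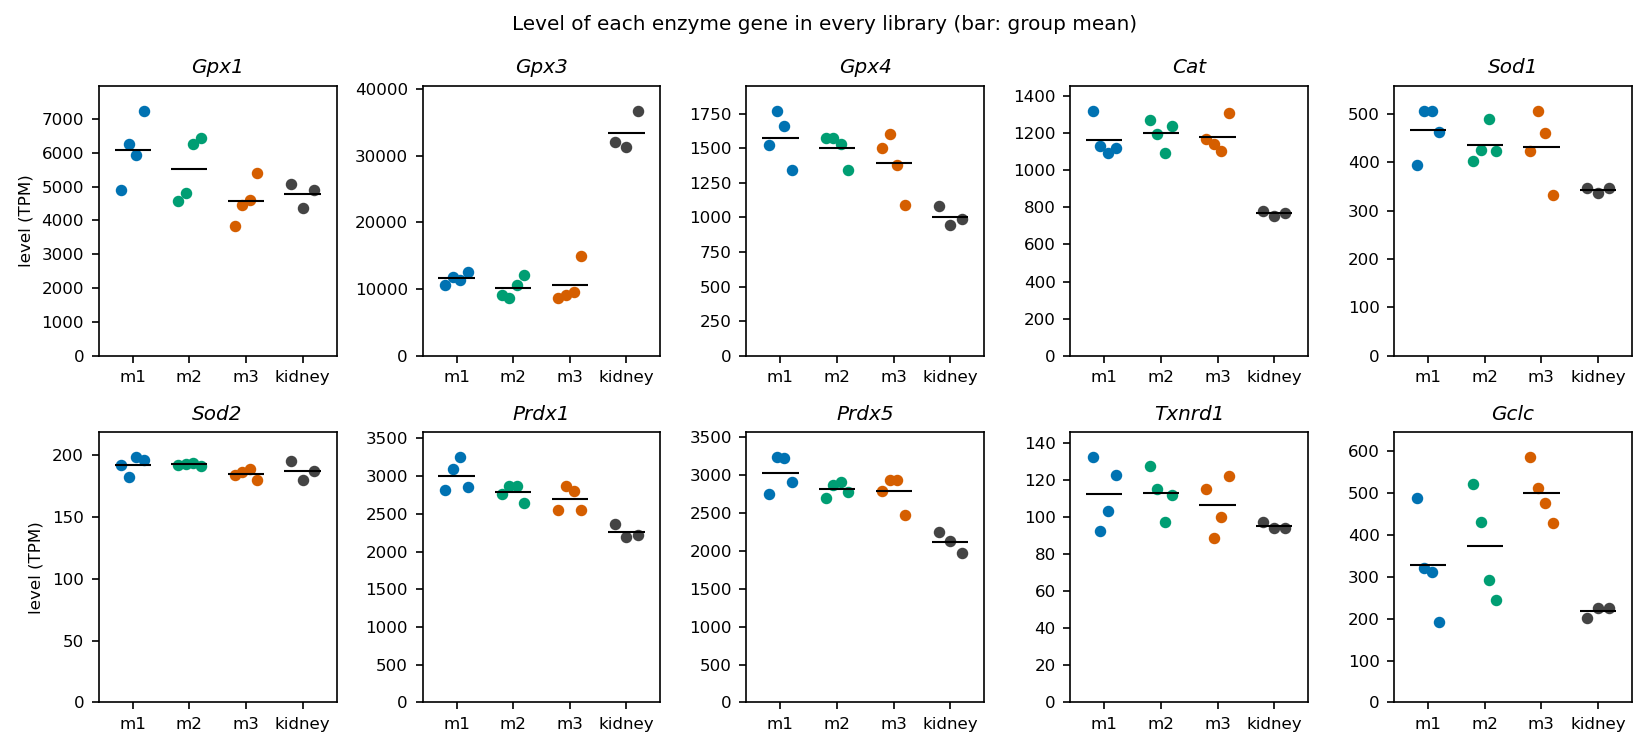
Level in TPM (vertical axis, linear from 0, a separate scale for each gene) of the 10 enzyme genes in every library, by PTS2 set (m1, m2, m3) and whole kidney (kidney), with points for libraries and a bar for each group mean. Whole kidney lies above all PTS2 libraries for Gpx3 and below all of them for Gpx4, Cat, Prdx1 and Prdx5.

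Gpx3 (ENSMUSG00000018339, chr11:54902453-54910377 in GENCODE M21) encodes the glutathione peroxidase secreted into plasma. It ranged from 8654 to 14949 TPM in PTS2, with a median of 10626 TPM, and was at 32056, 31262 and 36744 TPM in the 3 whole kidney libraries. The lowest whole kidney library was far above the highest tubule, which was m3 replicate 4. Whole kidney held 3.10 times as much on average, with means of 33354 ± 2963 TPM over its 3 libraries and 10774 ± 1898 TPM over the 12 tubules (± SD). PTS2 minus whole kidney came to -1.65 ± 0.15 on the log2 scale (SE, limma adjusted p = 7.12e-08), and lay between -2.17 and -1.35 under the other 2 scalings tried. Gpx3 was the most abundant gene of whole kidney, rank 1, and was rank 4 in PTS2. S1 markers moved the same way as Gpx3, as given above, whereas the summed markers of the whole proximal tubule overlapped between the groups. Of the 8 markers in that sum, 2 were lower in every tubule. These were Slc4a4 (58.7 to 159 TPM against 214 to 236 TPM) and Miox (2572 to 4900 TPM against 5355 to 5671 TPM). Slc27a2 was higher in every tubule (6904 to 11041 TPM against 4363 to 5131 TPM), and the others overlapped. The part of all these markers in the Gpx3 difference was not tested.

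Gpx1 (ENSMUSG00000063856, chr9:108338903-108340343) encodes the main glutathione peroxidase inside cells. It ranged from 3837 to 7242 TPM in PTS2, with a median of 5151 TPM, and was at 5067, 4376 and 4896 TPM in whole kidney. All 3 whole kidney libraries fell inside the range of the tubules, and PTS2 minus whole kidney was 0.15 ± 0.15 on the log2 scale (SE, limma adjusted p = 0.420). Gpx1 held rank 16 in both kinds of tissue.

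Gpx4 (ENSMUSG00000075706, chr10:80047166-80056439) encodes the peroxidase that acts on lipid peroxides within membranes. It ranged from 1087 to 1772 TPM in PTS2, with a median of 1525 TPM, and was at 1079, 942 and 990.3 TPM in whole kidney. The groups did not overlap, although the lowest tubule, m3 replicate 4, came close to the highest whole kidney library. On the log2 scale PTS2 was higher by 0.56 ± 0.11 (SE, limma adjusted p = 0.000487).

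The 3 glutathione peroxidases thus made up different mixtures. Together they came to 17659 ± 2611 TPM (SD) in the 12 tubules, against 39138 ± 3131 TPM (SD) in the 3 whole kidney libraries. Gpx3 held 60.9% ± 3.20 of that sum in PTS2 and 85.2% ± 1.17 in whole kidney. The intracellular Gpx1 held 30.5% ± 2.68 and 12.2% ± 0.921, and Gpx4 held 8.66% ± 1.81 and 2.57% ± 0.251. All 10 enzymes summed to 25684 ± 2571 TPM in PTS2, of which Gpx3 alone held 41.7% ± 3.71, and to 45122 ± 3046 TPM in whole kidney, of which it held 73.9% ± 1.85.

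Cat (ENSMUSG00000027187, chr2:103453849-103485160) encodes catalase. It ranged from 1089.8 to 1319.7 TPM in PTS2, with a median of 1152 TPM, and was at 782, 750.0 and 770.0 TPM in whole kidney. Every tubule was above every whole kidney library, and both groups were tight. PTS2 was higher by 0.62 ± 0.07 on the log2 scale (SE, limma adjusted p = 1.08e-06), and 0.91 and 0.44 under the other 2 scalings.

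The peroxiredoxins Prdx1, which works in the cytosol, and Prdx5, found in mitochondria, peroxisomes and the cytosol, stood at like levels. Prdx1 (ENSMUSG00000028691, chr4:116685544-116700822) ranged from 2546 to 3252 TPM in PTS2, with a median of 2835 TPM, and was at 2362, 2187 and 2225 TPM in whole kidney. Prdx5 (ENSMUSG00000024953, chr19:6906697-6910106) ranged from 2475 to 3236 TPM in PTS2, with a median of 2883 TPM, and was at 2241, 2129.5 and 1977 TPM in whole kidney. For both genes the groups were separate. On the log2 scale PTS2 was higher by 0.32 ± 0.07 for Prdx1 (SE, limma adjusted p = 0.000973) and 0.44 ± 0.07 for Prdx5 (SE, limma adjusted p = 0.000104).

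Sod1 (ENSMUSG00000022982, chr16:90220754-90226329) encodes the cytosolic copper-zinc superoxide dismutase. It ranged from 333 to 506 TPM in PTS2, with a median of 442 TPM, and was at 347, 336 and 346 TPM in whole kidney. A single tubule, m3 replicate 4, fell below the whole kidney libraries, and the other tubules were above them. The log2 difference came to 0.36 ± 0.11 (SE, limma adjusted p = 0.0105), but with quantile normalization it was 0.25 and no longer passed (limma adjusted p = 0.0614).

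Sod2 (ENSMUSG00000006818, chr17:13006846-13040063) encodes the manganese superoxide dismutase of the mitochondrial matrix. It ranged from 179 to 198 TPM in PTS2, with a median of 191 TPM, and was at 195, 180.1 and 187 TPM in whole kidney. The groups overlapped fully, and Sod2 varied least of the 10 genes among the tubules relative to its mean, with a mean of 189.7 ± 5.65 TPM (SD). The log2 difference was 0.02 ± 0.05 (SE, limma adjusted p = 0.768), but with median-of-ratios rescaling it was 0.31 and passed (limma adjusted p = 0.00156).

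Txnrd1 (ENSMUSG00000020250, chr10:82833951-82897712) encodes the cytosolic thioredoxin reductase, which passes electrons from NADPH to thioredoxin. It was the least abundant of the 10 genes in both groups, from 88.6 to 132 TPM in PTS2, with a median of 114 TPM, and at 97.5, 93.9 and 94.3 TPM in whole kidney. The tubules lay on both sides of the whole kidney libraries. The log2 difference was 0.21 ± 0.11 (SE, limma adjusted p = 0.133). It passed with median-of-ratios rescaling (0.50, limma adjusted p = 0.000205), with quantile normalization (0.30, limma adjusted p = 0.0196) and with 1 mean per set (limma adjusted p = 0.0190).

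Gclc (ENSMUSG00000032350, chr9:77754535-77794485) encodes the catalytic subunit of glutamate-cysteine ligase, the first and rate-limiting enzyme of glutathione synthesis. It varied most of the 10 genes among the tubules relative to its mean, from 193 to 587 TPM with a median of 430.2 TPM, and was at 202, 227 and 226 TPM in whole kidney. The lowest tubule, m1 replicate 4, was below all whole kidney libraries, m2 replicate 4 was just above them, and m3 replicate 1 was highest. The log2 difference was 0.80 ± 0.27 (SE, limma adjusted p = 0.0194). That call ended when any of the 3 whole kidney libraries was left out, with adjusted p values of 0.0764, 0.0531 and 0.0534 in limma and differences between 0.75 and 0.83.

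**Figure D2:**
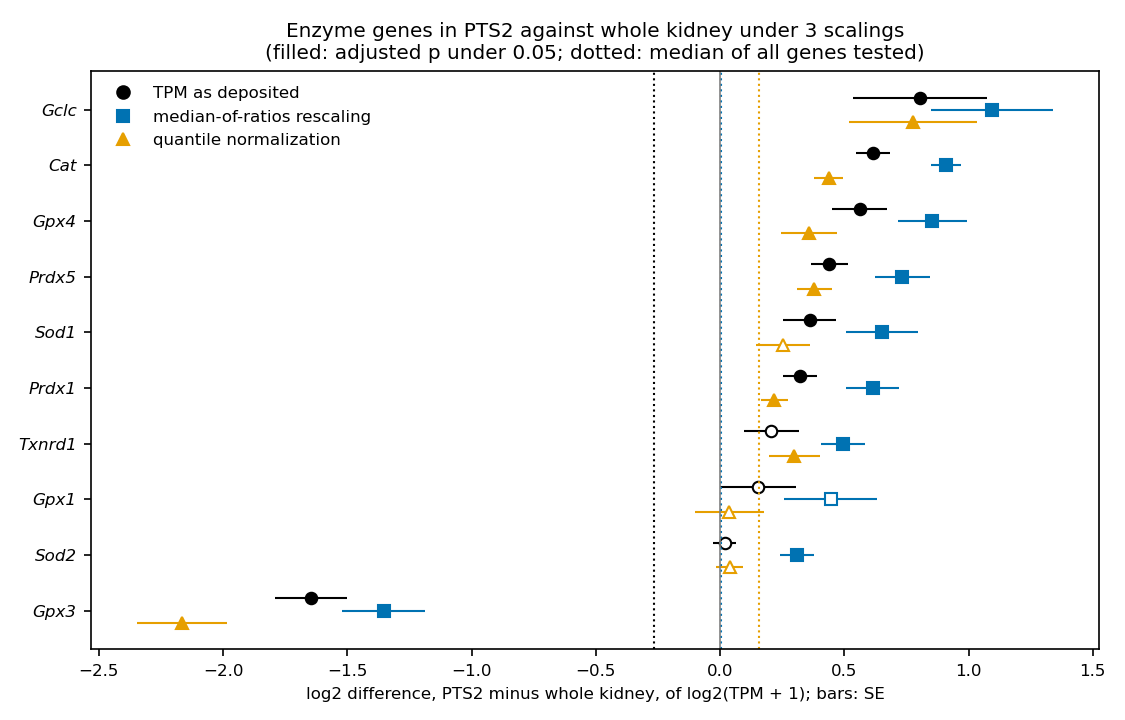
Log2 difference of PTS2 minus whole kidney (horizontal axis) for the 10 enzyme genes under 3 scalings of the TPM, with SE bars, filled symbols for limma adjusted p under 0.05 and a dotted line in the same colour at the median of all genes tested. Gpx3 is negative under each scaling, from -2.17 to -1.35, and the other 9 genes are positive, with Sod2 nearest to 0 in the TPM as deposited.

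TPM sum to a fixed total in each library, so the values were also read under 2 other scalings. Median-of-ratios rescaling moved the median difference of all genes from -0.27 to 0.00 and that of the 10 enzyme genes from 0.34 to 0.63. Quantile normalization moved them to 0.16 and 0.28. Of all genes passing, 18.9% were higher in PTS2 in the TPM as deposited, 50.7% with median-of-ratios rescaling and 64.7% with quantile normalization. Among the enzymes 8 were higher and 1 lower with median-of-ratios rescaling, and 6 higher and 1 lower with quantile normalization.

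Ratios of 2 genes within a library do not change when the library is multiplied by 1 factor, as in median-of-ratios rescaling, and 5 were compared in the TPM as deposited with exact two-sided permutation tests over 455 arrangements, adjusted over the 5. The log2 ratio of intracellular Gpx1 to secreted Gpx3 averaged -1.002 ± 0.20 (SD) over the tubules and -2.80 ± 0.13 (SD) over whole kidney libraries, a difference of 1.80 (exact permutation p = 0.0022, adjusted p = 0.0110). The p of 0.0022 is the smallest these arrangements can give. The log2 ratio of mitochondrial Sod2 to cytosolic Sod1 was -1.22 ± 0.17 in PTS2 and -0.87 ± 0.04 in whole kidney, a difference of -0.34 (exact permutation p = 0.0044, adjusted p = 0.0110). The arrangements treat tubules of a set as independent. With 1 mean per set, where the smallest possible p is 0.1, neither of these ratios passed (adjusted exact permutation p = 0.125 for each). Both also missed the threshold when whole kidney replicate 1 or 3 was left out, with differences of 1.87 and 1.75 for Gpx1 to Gpx3 and of -0.32 and -0.35 for Sod2 to Sod1. With 2 whole kidney libraries the 91 arrangements give no p under 0.0110, the value that Gpx1 to Gpx3 reached (adjusted exact permutation p = 0.0549); the adjusted p of Sod2 to Sod1 was up to 0.0824.

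The ratios of Cat to Gpx1 (difference 0.46, exact permutation p = 0.0308, adjusted p = 0.0513) and of Txnrd1 to its mitochondrial counterpart Txnrd2 (difference -0.26, exact permutation p = 0.0462, adjusted p = 0.0577) did not pass after adjustment. Cat to Gpx1 passed when m1 replicate 2, 3 or 4 or m2 replicate 3 was left out, and Txnrd1 to Txnrd2 when m3 replicate 4 was. For Gclc and Gclm, the catalytic and the modifier subunit of 1 enzyme, the ratio differed by -0.10 (exact permutation p = 0.664), and by -0.01 without whole kidney replicate 3.

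The 12 tubules were also compared among the sets m1, m2 and m3. In a fit without the replicate number, none of the 10 enzyme genes passed the limma F test after adjustment, and 1 (Gpx1) had an unadjusted p under 0.05. With the number as a block in the fit, Gpx1 and Gclc passed (limma adjusted p = 0.0112 and 0.0184), as described in the last section. Over all 11300 genes tested, 3.02% passed. In the 3 pairs of sets, none of the 10 passed, with 0, 3 and 0 at an unadjusted limma p under 0.05 for m2 against m1, m3 against m1 and m3 against m2. The share of all genes passing in those pairs without the block was 0.54%, 3.17% and 1.97%.

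Gpx1 was at 4911, 6269, 5932 and 7242 TPM in m1, at 4576, 4809, 6266 and 6443 TPM in m2 and at 3837, 4450.4, 4600 and 5392 TPM in m3. The sets overlapped, with m3 lowest on average, and the log2 difference of m3 minus m1 was -0.41 ± 0.15 (SE, limma adjusted p = 0.156). Gclc was at 488, 320, 311 and 193 TPM in m1, at 523, 432, 293 and 245 TPM in m2 and at 587, 512, 477 and 428 TPM in m3. Here m3 was highest on average, and the log2 difference of m3 minus m1 was 0.67 ± 0.27 (SE, limma adjusted p = 0.199), and 0.45 without m1 replicate 4 (limma adjusted p = 0.382). Set means of Cat lay close together, at 1163 ± 106, 1198 ± 76.5 and 1179 ± 88.7 TPM (± SD over 4 libraries) for m1, m2 and m3, as did those of Sod2, at 192 ± 6.94, 192 ± 1.05 and 185 ± 3.81 TPM. None of the 5 ratios passed among sets over 34650 arrangements. The lowest value was that of Gpx1 to Gpx3 (exact permutation p = 0.0284, adjusted p = 0.142). With set labels permuted within numbers, Cat to Gpx1, Gclc to Gclm and Gpx1 to Gpx3 passed (adjusted permutation p = 0.0309 for each).

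Of the 10 genes, 5 were highest in libraries of the same number in each of the 3 sets. Lowest in libraries of the same number were 4, of which 3 (Gpx1, Gpx4 and Gclc) were also highest in this way. The same counts were not made over all genes, so they do not set these enzymes apart from other genes. Gpx1 and Gpx3 were highest in the library numbered 4 and Gclc was lowest there in each of the 3 sets, and Gclc was highest in the library numbered 1. Gpx4 was highest in number 2 and lowest in number 4 in each set. The libraries numbered 4 also held 892 to 1149 TPM of S2 markers and 1497 to 2057 TPM of S3 markers, where those numbered 1 held 368 to 704 TPM and 2314 to 2683 TPM; the part of these markers in the enzyme values was not tested.

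Across the 12 PTS2 libraries some of the enzyme genes varied together and others against each other. The correlations that follow are descriptions on log2(TPM + 1), picked from 45 pairs of enzyme genes and 50 pairs of an enzyme gene with a segment marker, and the libraries share sets, TPM totals and the pattern by number just described. Gpx1 and Gclc ran opposite to each other, with Pearson r of -0.96 and Spearman rho of -0.95. Their r was -0.96 without m3 replicate 3, -0.96 without the 2 libraries farthest from the median of Gpx1, and between -0.99 and -0.98 within single sets. Prdx5 and Sod1 varied together (r = 0.91, rho = 0.93), while Cat ran against Sod1 (r = -0.88, rho = -0.80). Gpx1 and Gpx3 had r = 0.72 and rho = 0.80, which became r = 0.64 without the 2 farthest libraries. Within single sets their r was between 0.89 and 0.99.

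**Figure D3:**
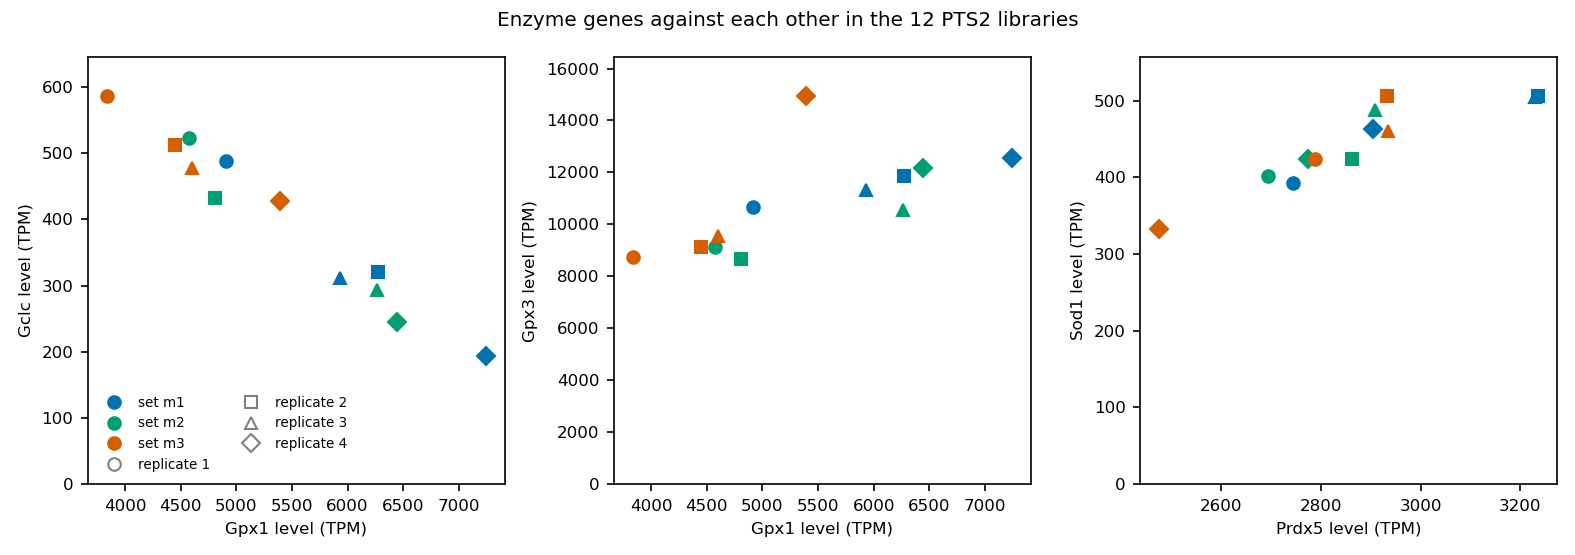
Levels in TPM of Gclc against Gpx1, Gpx3 against Gpx1 and Sod1 against Prdx5 in the 12 PTS2 libraries, with a point for each library, colour for the set and shape for the replicate number; the horizontal axes do not start at 0. Gclc goes from 587 to 193 TPM where Gpx1 goes from 3837 to 7242 TPM, and m3 replicate 4, at 14949 TPM of Gpx3, lies off the other points of the middle panel.

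Of the 10 genes, 3 varied closely with markers of the proximal tubule and its segments. Gpx3 varied with the phosphate transporter Slc34a1 (r = 0.94, rho = 0.91) and with the S2 marker Slc22a6, an organic anion transporter (r = 0.93, rho = 0.90). Within single sets r of Gpx3 was between 0.73 and 0.99 with Slc34a1 and between 0.64 and 0.9997 with Slc22a6. Gclc varied with the S3 marker Slc7a13, an amino acid transporter (r = 0.90, rho = 0.85), and Gpx1 varied against it (r = -0.92, rho = -0.90). For the other 7 genes the largest absolute r with any of the 5 markers read ranged from 0.31 for Txnrd1 to 0.63 for Gpx4. Among the 6446 genes that averaged 10 TPM or more in PTS2, the 3 most like Gpx3 over the 12 libraries were Ugt2b38, Scoc and Fam151a, each with r = 0.96. The 3 most like Cat were Tcea1 (r = 0.96), Mgat2 (r = 0.93) and Dnaja3 (r = 0.93). Those most like Gclc were Akr1c14 (r = 0.98), Nceh1 (r = 0.97) and Csf1r (r = 0.96).

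The enzymes work with a wider set of genes, and 58 of these were read in 10 lists. Of the 58, 51 were abundant enough to test against whole kidney, 19 were higher in PTS2, 14 were lower and 18 did not pass (limma, adjusted p under 0.05). Shares over all genes tested were 9.68% higher and 41.5% lower. Their median log2 difference was 0.09, beside 0.34 for the 10 enzymes and -0.27 for all genes tested. The other 7, Gpx2, Gpx5, Gpx7, Slc7a11, Lrp8, Uox and Maoa, had a mean under 1 TPM over the 15 libraries. Of these, Gpx7 and Maoa averaged 1.71 and 4.23 TPM in whole kidney and 0.24 and 0.03 TPM in PTS2, with no overlap of libraries, but were not tested.

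Both of the other glutathione peroxidases that could be tested were lower in PTS2. Testing needed a mean of 1 TPM over the 15 libraries. Among the tubules alone Gpx8 averaged 0.93 TPM, and Gpx6 averaged 3.38 TPM, or 0.64 TPM with m3 replicate 3 left out. Both genes thus entered the test largely through their whole kidney levels. Their shared direction was therefore largely set by this filter and does not describe the other glutathione peroxidases as a group. Gpx6 lay between 72.9 and 86.7 TPM in whole kidney, and in PTS2 it was at 0 to 1.77 TPM in 11 libraries and at 33.6 TPM in m3 replicate 3, the library with thick ascending limb markers. Its log2 difference was -5.38 ± 0.78 (SE, limma adjusted p = 2.31e-05), and -5.75 without that library (limma adjusted p = 4.37e-10). Gpx8, an enzyme of the endoplasmic reticulum, was at 0.33 to 2.48 TPM in PTS2 and 22.9 to 23.5 TPM in whole kidney (log2 difference -3.70, limma adjusted p = 8.48e-10). Sod3, the secreted superoxide dismutase, was higher in PTS2 (log2 difference 0.75, limma adjusted p = 1.68e-05). It was at 426 to 616 TPM in PTS2 against 292 to 319 TPM in whole kidney.

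Of the other peroxiredoxins, Prdx6 was higher in PTS2 (log2 difference 0.45, limma adjusted p = 5.13e-06), Prdx2 and Prdx4 were lower (-0.48 and -0.32) and Prdx3, the mitochondrial form, did not pass (0.16, limma adjusted p = 0.0621). The calls of Prdx2 and Prdx4 did not hold with median-of-ratios rescaling, at -0.19 and -0.04, nor that of Prdx4 with quantile normalization, at -0.06, or without whole kidney replicate 2 or 3. Sulfiredoxin, Srxn1, which repairs overoxidized peroxiredoxins, was at 30.3 to 46.5 TPM in PTS2 and 55.7 to 63.0 TPM in whole kidney (log2 difference -0.64, limma adjusted p = 0.000306). In the thioredoxin list 3 of 5 genes were higher, Txn1, Txn2 and the mitochondrial reductase Txnrd2 (0.34, 0.28 and 0.46), and 1 was lower. That gene was Txnip, which binds and inhibits thioredoxin, at 21.1 to 80.7 TPM in PTS2 and 135 to 142 TPM in whole kidney (log2 difference -1.81, limma adjusted p = 0.000186).

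Glutathione synthesis and recycling had 4 of 6 tested genes higher in PTS2 and 1 lower. Gss, glutathione synthetase, was at 835 to 1284 TPM in PTS2 against 484 to 565 TPM (log2 difference 1.02, limma adjusted p = 7.51e-07). Gclm, the partner of Gclc, was at 720.1 to 1077 TPM against 448 to 531 TPM (0.91, limma adjusted p = 2.34e-06). Ggt1, which breaks down glutathione outside the cell, and Gsr, which reduces oxidized glutathione, were higher by 0.82 and 0.41, and the gene that was lower was Glrx2, by a log2 difference of -0.28. With median-of-ratios rescaling and with quantile normalization 4 were higher and none passed as lower. Every tubule was above every whole kidney library for Gss, Gclm and Ggt1, whereas 1 tubule was below them all for Gclc.

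NRF2, encoded by Nfe2l2, is the factor that switches on many genes of this kind, and KEAP1 holds it back. Nfe2l2 was lower in PTS2, at 33.7 to 53.5 TPM against 63.9 to 65.0 TPM (log2 difference -0.67, limma adjusted p = 6.25e-05), while its target Nqo1 was higher, at 109 to 172 TPM against 62.7 to 81.1 TPM (0.98, limma adjusted p = 3.43e-06). Keap1 (-0.24, limma adjusted p = 0.0597) and the target Hmox1 (0.09, limma adjusted p = 0.699) did not pass.

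Genes that serve selenoprotein synthesis gave 1 higher, 1 lower and 5 that did not pass of 7 tested. Eefsec, the elongation factor for selenocysteine, was higher (0.54, limma adjusted p = 0.00106) and Pstk, a kinase in the making of selenocysteine tRNA, was lower (-0.61, limma adjusted p = 4.54e-05). With median-of-ratios rescaling 4 were higher and 1 lower, and the selenium transport protein Selenop turned from -0.05 to 0.24. Counting every gene with a selenocysteine codon in GENCODE M21, a list added after the values were seen, 19 of 24 could be tested, 3 were higher in PTS2 and 6 lower, with a median of -0.06. The 9 passing of 19 are near the 51.2% of all genes tested (9.68% higher, 41.5% lower), so the count does not set these genes apart. The 3 that were higher were Gpx4, Txnrd2 and Selenoo. Gpx3 was 1 of the 6 lower genes, beside Selenow, Selenom, Selenot, Selenok and Selenos, and Selenow, singled out after its values were seen, had the largest difference of the list (-4.72 ± 0.34, SE, limma adjusted p = 5.17e-09).

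NADPH, which both glutathione and thioredoxin reductase consume, is made by several enzymes, and all 6 listed genes passed, 3 in each direction under each of the 3 scalings. The malic enzyme Me1 was at 468 to 683 TPM in PTS2 against 321 to 373 TPM (log2 difference 0.65, limma adjusted p = 0.000102), and G6pdx and Pgd of the pentose phosphate pathway were higher by 0.41 and 0.20. The cytosolic Idh1 was at 101.5 to 359.6 TPM in PTS2 against 649.6 to 779.5 TPM (log2 difference -2.01, limma adjusted p = 2.97e-05). The mitochondrial Idh2 and Nnt were lower by log2 differences of -0.58 and -0.97. G6pdx did not pass without whole kidney replicate 1 (limma adjusted p = 0.0759).

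Among sources of superoxide and peroxide, Nox4, an NADPH oxidase of the tubule, was at 18.8 to 43.2 TPM in PTS2 against 99.7 to 131 TPM (log2 difference -1.94, limma adjusted p = 1.14e-06), and Xdh, which makes urate, was lower as well (-0.78), although not with quantile normalization (-0.10, limma adjusted p = 0.463). Of the peroxisomal oxidases, which form the substrate of catalase, Pipox, which oxidizes pipecolic acid and sarcosine, was higher by 0.77 (limma adjusted p = 2.13e-06). Cyba, a subunit of NADPH oxidases, was higher by 0.21, and Dao, Ddo, Hao2 and Maob did not pass. With median-of-ratios rescaling 5 of the 9 tested sources were higher, Hao2 among them (0.77, limma adjusted p = 0.0345). Of 5 genes for peroxisome import and division, Pex7 and Pex14 were higher (0.22 and 0.41), Pex5, Pex11a and Pex13 did not pass, and the call of Pex14 ended without whole kidney replicate 3 (limma adjusted p = 0.0559).

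**Figure D4:**
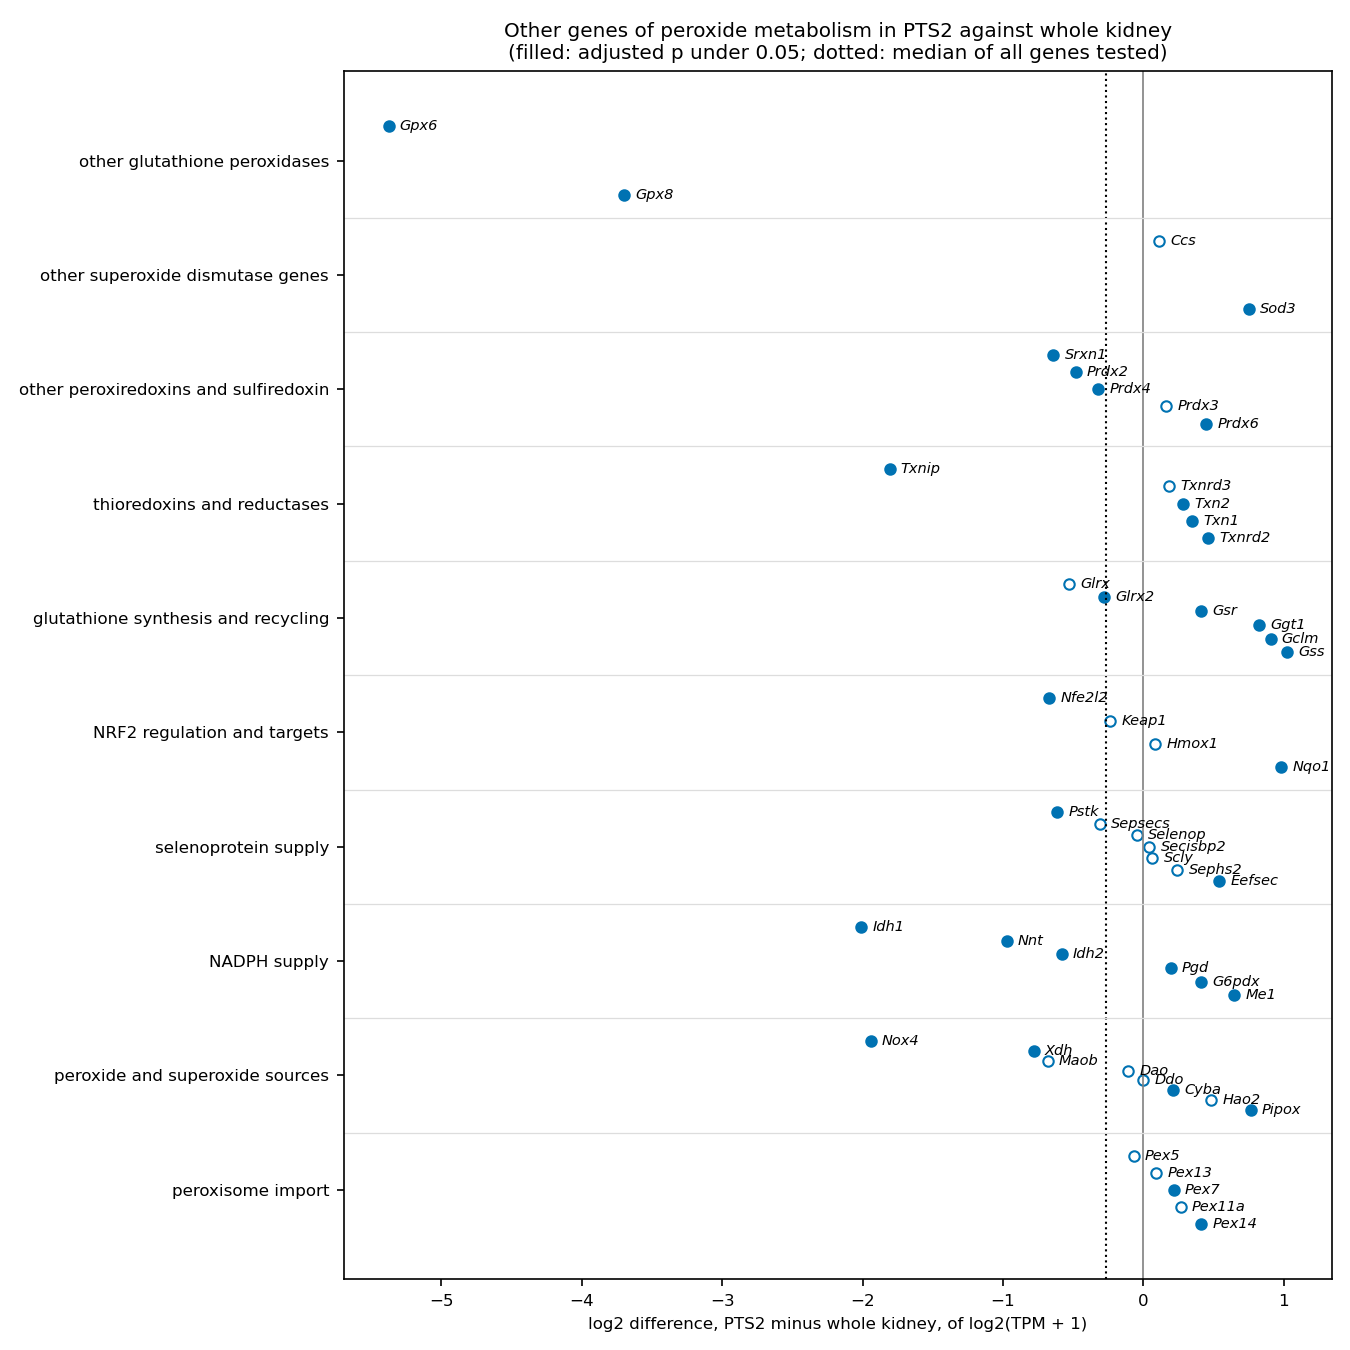
Log2 difference of PTS2 minus whole kidney (horizontal axis) for the tested genes that work with the enzymes, by list (vertical axis; 1 of the 51 is not drawn), filled where the limma adjusted p was under 0.05, with a dotted line at -0.27, the median of all genes tested. Gss, Nqo1 and Gclm lie farthest to the right, from 1.02 to 0.91, and Gpx6, Gpx8, Idh1, Nox4 and Txnip farthest to the left, from -5.38 to -1.81.

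Among the 3 PTS2 sets, 50 of the listed genes could be tested, and 3 passed the limma F test without a replicate block, beside 3.02% of all genes tested. None of the 10 enzymes passed in that fit. Txnip was highest in m1, with 66.1 ± 12.9 TPM, where m2 had 32.9 ± 5.61 TPM and m3 had 28.7 ± 10.3 TPM (± SD over 4 libraries; limma adjusted p = 0.00972). Hmox1, heme oxygenase, was at 53.9 ± 9.19, 49.9 ± 2.80 and 36.7 ± 2.47 TPM (limma adjusted p = 0.0281). Hao2, a peroxisomal oxidase that releases hydrogen peroxide, was highest in m2, at 535 ± 76.7 TPM, against 225 ± 49.7 TPM in m1 and 334 ± 47.2 TPM in m3 (limma adjusted p = 0.00174). Without a filter on low values Txnip and Hmox1 missed the threshold (limma adjusted p = 0.0538 and 0.0796), and Hmox1 also missed it when any of 6 single libraries was left out (m1 replicate 3, m2 replicate 2 and each of m3), with adjusted p up to 0.107.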

How the data were processed

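Libraries of polyA RNA from 12 PTS2 tubules and 3 whole kidneys were amplified with a kit for very small RNA input, per the labels' protocols. The authors deposited TPM for 47069 genes; reads were processed with STAR 2.5.1b and RSEM 1.2.31 on GRCm38.p5, per the submitters' processing notes. RSEM divides reads that match several near-identical copies, so such genes are less certain. TPM allow no count test. Groups came from the description labels.

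Here limma 3.58.1 in R 4.3.3 (lmFit, eBayes with trend) was run on log2(TPM + 1) for genes that averaged 1 TPM or more, with Benjamini-Hochberg adjustment over all genes and a threshold of 0.05. Fold changes on this scale understate low genes. Against whole kidney the set was a correlated block (estimated correlation 0.0669); among sets an F test and contrasts were used. Ratios were compared by exact permutation. Scripts were tested on simulated data. Named genes were the enzymes, the list and marker genes, and for Gpx3, Cat and Gclc the 3 most correlated genes. Members and lists were chosen with earlier results of these data known. Alternatives were a pseudocount of 0.1, no filter or 10 TPM, 2 rescalings, mitochondrial genes left out, a replicate block, no within-set correlation, 1 mean per set, a pseudocount in the ratios, and each library left out. The authors' own means and errors were not used, and 1 listed gene that enters the counts is not reported here.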

Additional observations from a re-analysis of the deposited data

Results flagged for a closer look

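The 10 enzyme genes, the pathway genes named with values and the 5 ratios were screened in each PTS2 set for 1 library far from the other 3, by its gap to the nearest library relative to the range of the set. Of 135 such groups, 13 stood out, where chance gives about 1 in 20, or 6.75; none was a ratio. Among the enzymes, Cat was at 1319.7 TPM in m1 replicate 1, above the next library at 1127 TPM, and Gpx3 was at 14949 TPM in m3 replicate 4, above the next at 9559 TPM.

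Replicate 4 of set m3 was also the high library of its set for Srxn1 (46.5 TPM, next 35.7) and Idh1 (200.4 TPM, next 113). Replicate 4 of set m1 was high for Idh1 (359.6 TPM, next 219.7) and Idh2 (529 TPM, next 504) and low for Prdx6 (697 TPM, next 785). In set m2, replicate 4 was high for Txnip (41.3 TPM, next 30.5) and Xdh (5.48 TPM, next 4.34), and replicate 1 for Hmox1 (54.1 TPM, next 49.0). The remaining 3 were Me1 at 683 TPM in m1 replicate 1 (next 492), Txnrd2 at 62.4 TPM in m3 replicate 1 (next 53.2) and Gpx6 at 33.6 TPM in m3 replicate 3 (next 1.75), the library with thick ascending limb markers.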

How the results depend on the processing

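Over all alternatives, 1696 values of single enzyme and pathway genes kept their direction and side of the threshold, 20 lost the call, 13 gained it and 5 changed sign; those of the 10 enzymes are given with the results or here. With a library left out, 3 log2 differences against whole kidney that were near 0 changed sign: Sod2 ranged from -0.0099 to 0.047 (below 0 without whole kidney replicate 2), Hmox1 from -0.037 to 0.32 (below 0 without whole kidney replicate 2 or 3) and Selenop from -0.093 to 0.017 (above 0 without whole kidney replicate 2). Selenop was also at 0.24 with median-of-ratios rescaling (limma adjusted p = 0.0453). The number of enzymes passing against whole kidney was 6 to 7 with each library left out in turn. The number of all genes passing was 9399 with no filter on low values and 3113 with a mean of at least 10 TPM, where other genes were tested. Among sets it was 196 with no filter and 197 to 563 with a library left out. For m2 against m1 it was 105 with median-of-ratios rescaling, 107 with quantile normalization and 37 to 135 with a library left out. For m3 against m1 it was 178 with no filter and 160 to 771 with a library left out, and for m3 against m2 it was 111 and 119 to 313. The causes were not tested.

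With 1 mean per set (3 against 3, where the smallest possible p is 0.1) the ratios Gpx1 to Gpx3 and Sod2 to Sod1 kept their differences of 1.80 and -0.34, with adjusted exact permutation p of 0.125. With a library left out, the difference in log2 ratio ranged from 1.75 to 1.87 for Gpx1 to Gpx3, -0.37 to -0.32 for Sod2 to Sod1, 0.42 to 0.51 for Cat to Gpx1, -0.30 to -0.21 for Txnrd1 to Txnrd2 and -0.16 to -0.01 for Gclc to Gclm. The log2 difference of m3 minus m1 ranged from 0.45 to 0.89 for Gclc and from -0.51 to -0.32 for Gpx1.

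Libraries of the same number deviated from their set means with correlations of 0.0254 to 0.273 (mean 0.143 over 12 pairs, against -0.0481 over 36 other pairs). Because only 7 of the 12 pairs were over 0.1, the numbers were not taken to pair libraries. Other values went the other way: all 12 correlations were positive, and 9 of 12 libraries matched best with their own number. In a fit with the number as a replicate block, 888 genes passed among sets, 307 for m2 against m1, 838 for m3 against m1 and 416 for m3 against m2. Among them were 2 enzymes, in the F test and in m3 against m1: Gpx1 (limma adjusted p = 0.0112 and 0.00580) and Gclc (limma adjusted p = 0.0184 and 0.0102). With set labels permuted within numbers, 3 ratios among sets (Cat to Gpx1, Gclc to Gclm and Gpx1 to Gpx3) each had a permutation p of 0.0185 (adjusted p = 0.0309). Because TPM keep no depth, what depth limits could not be given.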
